A study of Mus musculus with 8 samples.

Results

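The RNA of wild-type primitive erythroid precursors, which are nucleated red cell precursors of the mouse yolk sac, was described from the 4 arrays labelled as erythroid cells of the inbred FVB/N strain (replicates 3, 5, 7 and 9), of 8 arrays in the series. The other 4 arrays carry a KLF2 knockout label and enter no value below, with 2 exceptions. The authors' normalisation may have used them, and 1 alternative setting chose the probe set of each gene over all 8 arrays. All embryos were taken at embryonic day 9.5, and the labels name no treatment. Per the labels' protocols, the cells were collected by laser capture on stained yolk sac cryosections of 8 micrometres, at about 1 cell for every 2 to 3 laser pulses. Each replicate used about 12 to 50 slides and pooled 2 to 4 yolk sacs from 2 litters, so a replicate is a pool of embryos. Between 10 and 39 ng of RNA was amplified in 2 cycles from an oligo dT primer and hybridised to Affymetrix 430A 2.0 arrays.

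Primitive erythroid cells are the first blood cells of the embryo. They arise in the blood islands of the yolk sac, between an outer layer of visceral endoderm and a mesoderm layer that also forms endothelium and mesenchyme, and they enter the circulation while still nucleated and dividing. They are known for embryonic globins (the zeta chain from Hba-x, the epsilon-y chain from Hbb-y and the beta-H1 chain from Hbb-bh1), and the transcription factors Gata1, Tal1 and Klf1 drive their red cell genes.

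The values were log2 signals per probe set, and each gene was read from its brightest probe set (by mean over the 4 arrays) among the 20380 of 22626 probe sets that carry 1 gene symbol, which gave 12393 genes. Errors given as ± are SDs over the 4 arrays (n = 4), and values listed in sequence are those of arrays 3, 5, 7 and 9. Array medians lay between 5.09 and 5.13 and upper quartiles between 6.83 and 7.01. The mean of a gene had a median of 5.59 over all genes, a 90th percentile of 9.02, a 99th percentile of 11.78 and a highest value of 14.11. The table holds no detection calls, so a level that background can reach was taken from 85 genes restricted to adult tissues such as retina, lens, sperm and glands, whose median was 4.08 and whose 95th percentile, 5.29, is called the reference bound. A total of 6843 genes (55.2%) had a mean above the bound, and 6087 were above it on every array. Signals of different probe sets also differ through the probes themselves, so the order given below is an order of array signal and not of transcript number.

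**Figure D1:**
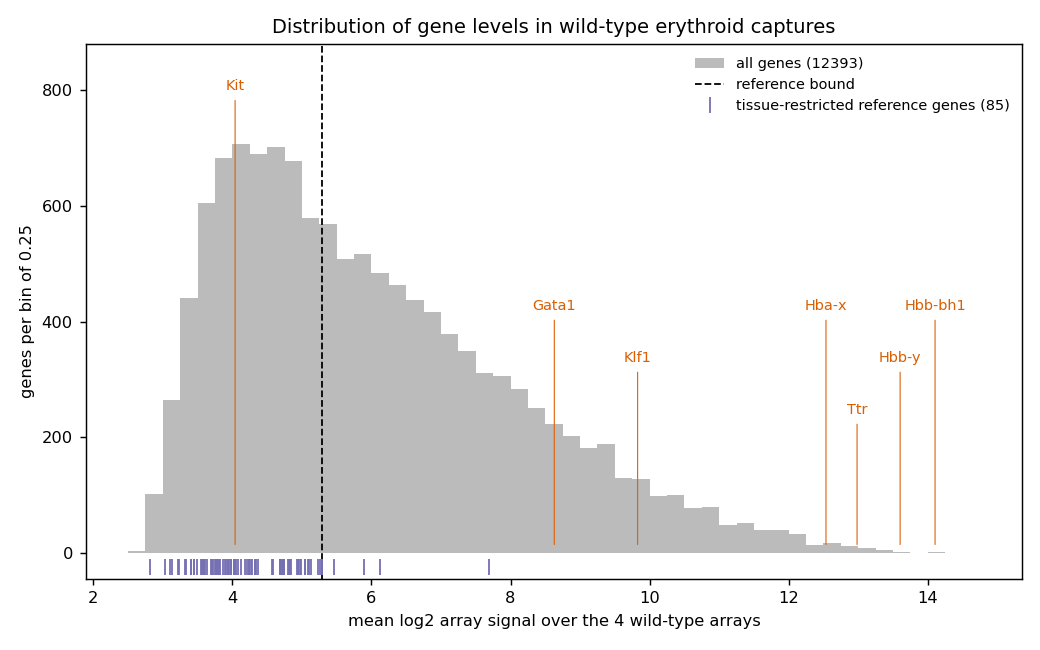
Number of genes (vertical axis) by mean log2 array signal over the 4 wild-type arrays (horizontal axis), in bins of 0.25. Purple ticks are the 85 tissue-restricted reference genes and the dashed line is the reference bound of 5.29. The embryonic globins Hbb-bh1, Hbb-y and Hba-x and the visceral endoderm gene Ttr lie at the upper end, and the receptor gene Kit lies among the reference genes.

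The 4 arrays resembled each other in 2 pairs. Pearson's r across genes was 0.983 between arrays 3 and 5 and 0.985 between arrays 7 and 9, against 0.965 to 0.967 for the other 4 pairs of arrays (genes are not independent replicates). Between arrays 3 and 5, 221 genes differed by more than 1 on the log2 scale, and between arrays 7 and 9 the number was 214, whereas every other pair differed in 777 to 833 genes. The labels give no batch, date or litter that separates these pairs. Some results are therefore also given for arrays 7 and 9 alone, a setting added after the values were seen. In that setting, 4 of 34 list medians moved by more than their SD between arrays, and not all of them are given below. All 14 measured genes of the list of primitive erythroid markers had means above the bound, and all but Nfe2 were above it on every array. The list had a median at percentile 93.7 of all genes, and 10 of the 14 were among the top 10 percent.

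Embryonic beta-like globins headed the ranking. Hbb-bh1 had the highest mean of all 12393 genes at 14.11 ± 0.06, with 14.07, 14.13, 14.17 and 14.04 on arrays 3, 5, 7 and 9, and Hbb-y was the next at 13.60 ± 0.25, with 13.78, 13.81, 13.55 and 13.28. Every array of Hbb-bh1 exceeded every array of Hbb-y. This order depends on the probe set, since the dimmest of the 3 Hbb-bh1 probe sets (13.27, 13.43, 13.39 and 13.26) lay below the brightest of Hbb-y in its mean. The third gene was Uqcrb, a subunit of complex III of the respiratory chain (13.50 ± 0.07), followed by the ribosomal protein genes Rpl13a (13.37 ± 0.04), Rps18 (13.31 ± 0.25), Rps7 (13.27 ± 0.07) and Rps29 (13.15 ± 0.09). Of the 30 genes with the highest means, 15 encode cytosolic ribosomal proteins, which also include Rps2 (13.11 ± 0.11), Rps28 (13.06 ± 0.11), Rpl41 (12.90 ± 0.20), Rplp2 (12.85 ± 0.21), Rps3a1 (12.80 ± 0.16), Rpl22 (12.73 ± 0.18), Rpl10a (12.72 ± 0.08) and Rpl38 (12.71 ± 0.05). The others include Tpt1, the translationally controlled tumour protein (13.12 ± 0.09), Hint1, a nucleotide-binding hydrolase (13.02 ± 0.12), Eef1a1, the elongation factor that brings aminoacyl-tRNA to the ribosome (12.72 ± 0.22), and Cycs, cytochrome c (12.84 ± 0.10). C1qbp, a mitochondrial matrix protein gene (12.92 ± 0.26), Serbp1, an RNA-binding protein gene (12.89 ± 0.06), and Akr1a1, an aldehyde reductase gene (12.77 ± 0.09), were also among them. Chromatin proteins were represented by the histone variant gene H2az1 (12.91 ± 0.13) and the nucleosome-binding protein gene Hmgn1 (12.83 ± 0.18), and iron storage by the ferritin heavy chain gene Fth1 (12.72 ± 0.17). Ttr, which encodes the thyroid hormone and retinol carrier transthyretin and is a product of visceral endoderm, ranked 15 at 12.98 ± 0.11.

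**Figure D2:**
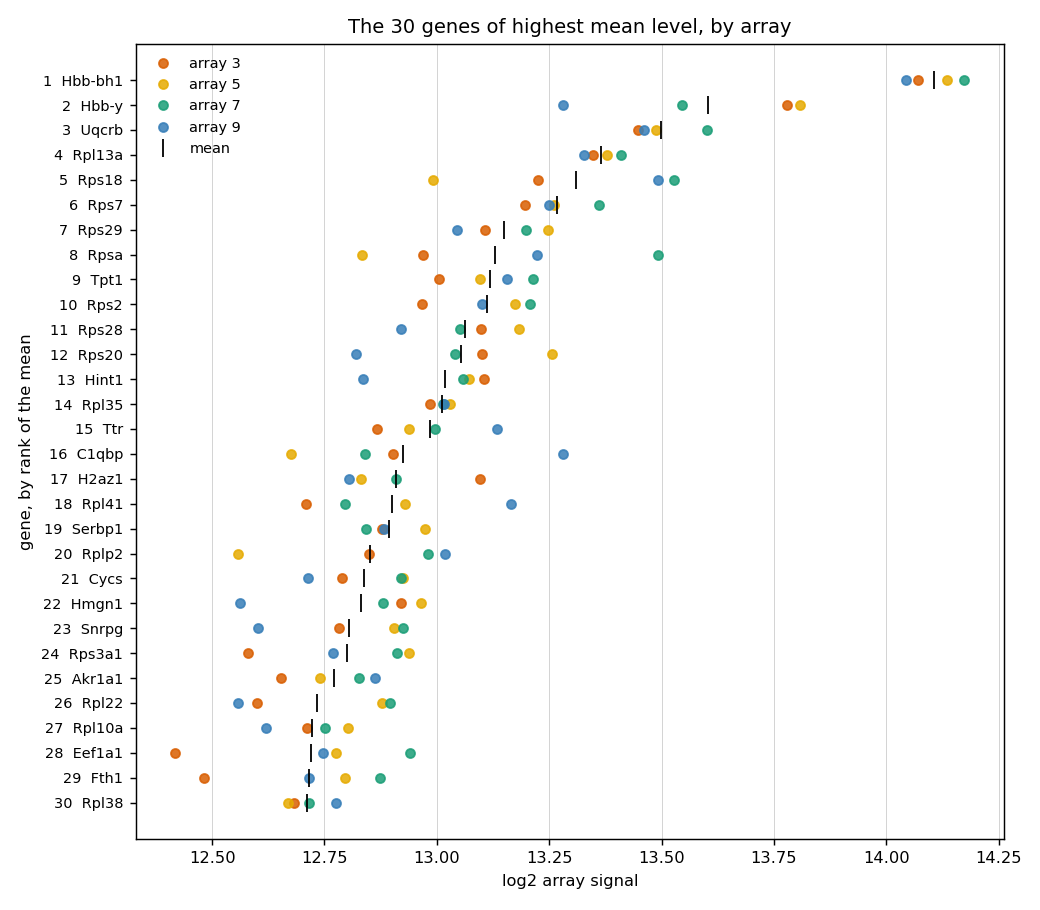
Log2 array signal (horizontal axis) of the 30 genes with the highest means (vertical axis, by rank), with 1 point per wild-type array and a bar at the mean. Hbb-bh1 lies to the right of Hbb-y on every array, and below rank 4 each gene overlaps its neighbours.

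Neighbours in this order were mostly indistinguishable. Of the 29 adjacent pairs among the 30 genes, 27 overlapped in their array values, and the exceptions were Hbb-bh1 over Hbb-y and Uqcrb over Rpl13a, each by its brightest probe set. With arrays 7 and 9 alone, 26 of the 30 genes were still among the 30 of highest mean. The choice of probe set mattered far more: 13 of the 30 stayed among the 30 of highest mean when a gene's probe sets were averaged. Only 3 did when all probe sets with a name suffix of any kind were left out. That setting also drops probe sets assigned to 1 gene, such as the brightest of Hbb-bh1 and of Uqcrb, so it does not count shared matches. Genes without any other probe set, among them Hbb-bh1 and Hbb-y, were then not measured and could not stay. Many of the brightest probe sets cannot be given to 1 gene at all. Among the 30 brightest probe sets of the array, 11 carry 1 symbol, 15 carry several and 4 carry none, and 18 name a ribosomal protein gene. The brightest of those with several symbols names Rpl23 beside unnamed loci and read 13.95, 13.98, 13.93 and 13.86.

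The alpha-like embryonic globin Hba-x stood at 12.54 ± 0.55 (rank 39), with 11.82, 12.51, 12.66 and 13.16 on arrays 3, 5, 7 and 9. It was lowest on array 3 and highest on array 9. Its spread stands beside an SD of 0.06 for Hbb-bh1, at the very top of the signal range, and a median SD of 0.18 in the top 1 percent of genes. Adult alpha globin was bright as well: the 3 probe sets shared by Hba-a1 and Hba-a2 had means of 13.16, 13.11 and 13.09, and the brightest read 12.88, 12.88, 13.38 and 13.48. These probe sets cannot tell the 2 genes apart. The probe sets assigned to Hba-a2 alone (3.88 ± 0.15) and to Hba-a1 alone (3.69 ± 0.15) lay below the reference bound. The probe set shared by the adult beta globins (Hbb-bt, Hbb-bs, Hbb-b2 and Hbb-b1) had a mean of 11.99 ± 0.56, with 11.64, 12.79, 11.91 and 11.60, and was highest on array 5. Hbb-b2, the minor adult beta chain, was represented by a probe set of its own at 7.41 ± 1.18, with 6.79, 9.15, 7.11 and 6.59, and array 5 again stood above the rest. A second probe set of Hbb-b2 alone was under the bound and showed no rise on array 5 (4.89, 4.86, 4.89 and 4.70). In captures from many cells, fewer cells of a type and less RNA per cell cannot be told apart, here and in all results that follow.

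The 120 bases before the annotated start of 5 genes are printed to show the letters that known erythroid regulators bind (CACCC for Klf1 and its relatives, AGATAA or the shorter GATAA for Gata1) beside 2 general promoter elements (TATAAA, which positions the start, and CCAAT). They are RefSeq sequences of the GRCm38.p6 build, which is the C57BL/6J strain and not FVB/N, read 5′ to 3′ in the direction of the gene. Capitals mark every match to any of these 5 motifs on either strand. The motif GATAA lies within the longer one and was added after the sequences had been seen. Hbb-y and Hba-x are embryonic globins, Alas2 is the first enzyme of haem synthesis in red cells, Afp is a visceral endoderm gene that ranked 31, and Rpl13a is the ribosomal protein gene with the highest mean.
Hbb-y, chr7:103853208-103853327, minus strand: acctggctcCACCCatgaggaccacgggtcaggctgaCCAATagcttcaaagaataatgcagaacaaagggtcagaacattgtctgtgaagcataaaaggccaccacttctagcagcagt
Hba-x, chr11:32276480-32276599, plus strand: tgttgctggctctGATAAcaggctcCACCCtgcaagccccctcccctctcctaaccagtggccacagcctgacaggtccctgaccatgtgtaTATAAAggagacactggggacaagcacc
Alas2, chrX:150547297-150547416, plus strand: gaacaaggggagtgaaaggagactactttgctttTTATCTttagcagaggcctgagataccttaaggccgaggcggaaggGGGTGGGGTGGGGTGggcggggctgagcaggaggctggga
Afp, chr5:90490594-90490713, plus strand: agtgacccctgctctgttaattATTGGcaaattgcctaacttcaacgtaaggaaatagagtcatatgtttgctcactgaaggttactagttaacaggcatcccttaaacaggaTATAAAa
Rpl13a, chr7:45128746-45128865, minus strand: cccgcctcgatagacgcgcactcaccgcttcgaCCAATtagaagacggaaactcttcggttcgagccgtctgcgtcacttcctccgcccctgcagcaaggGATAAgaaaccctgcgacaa
CACCC occurs once in Hbb-y and in Hba-x and 3 times in Alas2, where it lies on the other strand. The longer Gata1 motif occurs in Alas2, on the other strand, and the shorter one alone in Hba-x and Rpl13a. TATAAA occurs in Hba-x and Afp. The CCAAT motif occurs in Hbb-y, in Rpl13a and, on the other strand, in Afp.

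These matches were compared with those of all genes, in the 250 bases before the start of the 9882 genes with an entry. CACCC is common: it occurred in 57.4% of all promoters, in 56.4% of those of genes above the reference bound and in 67.9% of the 131 genes in the red cell lists. AGATAA occurred in 7.16% of all promoters and in 17 of the 131 red cell genes, and GATAA in 16.9% and 24.4%. These shares were not highest in the red cell lists: AGATAA was in 11 of the 68 tissue-restricted reference genes, GATAA in 41.4% of 29 visceral endoderm markers, 32.4% of the reference genes and 28.2% of 39 ribosomal protein genes, and CACCC in 72.4% of the visceral endoderm markers. Shares also differed with level. TATAAA was found in 6.31% of the genes above the bound and 12.8% of those at or below it, and in 33.8% of the 68 tissue-restricted reference genes. The median number of CG pairs was 17 above the bound and 8 at or below it. No test was made of these shares, and a match is not a binding site.

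Most of the pathway that makes haem was well above the bound. Of 15 measured genes of haem synthesis, 13 had means above it and 8 were in the top 10 percent, with a list median of 9.04 (percentile 90.1) beside 5.59 for all genes. Fech, which inserts iron into the porphyrin ring, was the highest at 10.98 ± 0.44, followed by Tmem14c, a mitochondrial porphyrin carrier (10.69 ± 0.81), Slc25a37, the mitochondrial iron importer mitoferrin (10.68 ± 0.62), and Alad, the second enzyme of the pathway (10.30 ± 0.87). Alas2, the erythroid form of the rate-limiting first enzyme, had a mean of 9.08 ± 1.60 and read 7.54, 7.88, 10.58 and 10.33 on arrays 3, 5, 7 and 9. It was more than 2 log2 units lower on arrays 3 and 5 than on arrays 7 and 9. Alas1, the form used in other tissues, lay close to the bound at 5.55 ± 0.57, and Ppox (4.83 ± 0.42) and the haem exporter gene Flvcr1 (4.42 ± 0.15) lay under it.

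Iron handling gave a similar picture. The list of 21 measured genes had a median of 8.96 (percentile 89.7), with 19 above the bound. Below Fth1, the transferrin receptor Tfrc was at 11.30 ± 0.44 with 10.68, 11.69, 11.52 and 11.29, and array 3 was the lowest. Pcbp1, an iron chaperone, was at 11.06 ± 0.48, and the iron exporter gene Slc40a1 was at 9.61 ± 0.34. Tfr2, the receptor that partners the erythropoietin receptor, averaged 7.12 and was higher on arrays 7 and 9 (5.97, 6.83, 7.94 and 7.73). Hmox1, which breaks haem down (5.02 ± 0.14), and Hfe (4.01 ± 0.04) were under the bound, and Steap3, the endosomal iron reductase, was just over it (5.42 ± 0.21).

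The transcription regulators of red cells lay in the middle of the range. Their 29 measured genes had a median of 6.25 (percentile 60.8), 24 were above the bound and 2 were in the top 10 percent. Klf1, the erythroid Kruppel-like factor that activates globin, haem and membrane genes, was the highest at 9.83 ± 0.81, with 9.15, 9.14, 10.29 and 10.73. Tal1, which nucleates the erythroid complex with Gata1 and Lmo2, was at 9.13 ± 0.66, with 8.57, 8.59, 9.92 and 9.43. Gata1 itself was at 8.63 ± 0.59, with 8.01, 8.26, 8.96 and 9.28. All of these were lower on arrays 3 and 5 than on arrays 7 and 9. Trim10, a red cell maturation factor, showed the same order at 8.30, 8.22, 10.01 and 9.42. Bach1, the haem-regulated repressor, was at 8.93 ± 0.48 and ran the other way, with 9.33, 9.34, 8.43 and 8.60.

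Further members were lower or steadier. Lmo2 was at 8.19 ± 0.53, Nfe2l2, the regulator of antioxidant genes, at 8.36 ± 0.37, Foxo3 at 8.01 ± 0.34, Lyl1 at 7.63 ± 0.75 and Mafk, a small Maf partner, at 7.22 ± 0.24. Gfi1b, a repressor of the red cell and platelet lineages (6.67 ± 0.21), Gata2, which Gata1 replaces during maturation (6.64 ± 0.15), and Myb (6.43 ± 0.39) lay between the median and the third quartile of all genes. Zfpm1, the Gata1 cofactor also called FOG1, was at 6.11 ± 1.17 and read 5.28, 5.01, 6.64 and 7.49, a range wider than 2. Mafg (6.25 ± 0.25), Tcf3 (6.18 ± 0.85), Stat5b (5.86 ± 0.12), Sox6 (5.60 ± 0.48), Runx1 (5.52 ± 0.40), Nfe2 (5.51 ± 0.90), Cbfa2t3 (5.47 ± 0.09), Stat5a (5.42 ± 0.20) and Ldb1 (5.34 ± 0.75) were within about 1 log2 unit of the bound. Of these, Nfe2 and Ldb1 were under it on arrays 3 and 5 and above it on arrays 7 and 9. E2f4 (5.14 ± 0.16), Ikzf1 (4.58 ± 0.28) and the adult-stage repressors of embryonic globin Zbtb7a (3.85 ± 0.34) and Bcl11a (3.85 ± 0.13) were under it.

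Within the Klf and Sp family of CACCC- and GC-binding factors, 10 of 17 measured genes were above the bound, beside 55.2% of all genes. Klf1 was the only member in the top 10 percent. It was followed by Sp1, a ubiquitous activator (8.17 ± 0.27), Sp3 (7.87 ± 0.98) and Klf6 (7.86 ± 0.81). Sp3 read 8.18, 9.11, 6.93 and 7.25 and Klf6 read 8.08, 8.82, 6.89 and 7.64, and both were highest on array 5 and lowest on array 7. Klf9 (6.86 ± 0.79), Klf3 (6.83 ± 0.14), Klf13 (6.78 ± 0.21), Klf15 (6.40 ± 0.51), Klf10 (6.30 ± 0.14) and Klf7 (5.96 ± 0.30) were between the bound and the third quartile of all genes. Klf2, the gene that the series is about, was at 5.28 ± 0.31 (percentile 44.5), level with the bound. Sp4 (5.26 ± 0.46), Klf16 (5.01 ± 0.24), Klf4 (4.37 ± 0.75), Klf12 (4.21 ± 0.06), Klf5 (4.13 ± 0.14) and Klf17 (3.83 ± 0.08) were under it.

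Genes of the red cell membrane and its skeleton ranged widely. Of 31 measured genes, 27 were above the bound, with a median of 7.02 (percentile 71.6), which was 7.72 with arrays 7 and 9 alone. Slc4a1, the band 3 anion exchanger, was the highest at 11.36 ± 0.09, and its values of 11.44, 11.37, 11.40 and 11.23 lay close together. The glucose transporter gene Slc2a1 was at 11.28 ± 0.17, the phosphatase gene Acp1 at 11.25 ± 0.28, the cytoskeletal actin gene Actb at 11.06 ± 0.26, and Ermap, which carries the Scianna blood group in humans, at 9.57 ± 0.70. Rhag, which carries the Rh complex (7.40, 7.90, 9.67 and 9.12), Rhd (6.04, 6.36, 8.30 and 7.38), Kel, the Kell protein (5.11, 5.64, 7.30 and 7.26), and Dmtn, dematin (5.40, 5.21, 6.74 and 7.53), were all lower on arrays 3 and 5. The skeleton genes Ank1, ankyrin (7.32 ± 0.47), Epb42 (7.67 ± 0.28) and Sptb, beta spectrin (5.85 ± 0.57), were moderate. Aqp1, the water channel of adult red cells (4.04 ± 0.14), Xk (4.13 ± 0.09) and Bcam, which carries the Lutheran blood group in humans (4.51 ± 0.28), were under the bound.

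Genes of erythropoietin signalling were not among the bright ones. None of 20 measured was in the top 10 percent, and 15 were above the bound. The adaptor Gab1 was at 8.61 ± 0.26, the receptor kinase Jak2 at 8.49 ± 0.20, the survival kinase Pim1 at 7.59 ± 0.71 and the anti-apoptotic Bcl2l1 at 7.47 ± 0.33. Epor, the receptor itself, was at 7.23 ± 0.67, with 6.68, 6.68, 7.52 and 8.05, lower on arrays 3 and 5 than on arrays 7 and 9. Kit, the stem cell factor receptor that early erythroid progenitors lose as they mature, was at 4.04 ± 0.18, near the median of the reference genes (4.08). Socs1 (4.26 ± 0.18) and Pik3r1 (4.26 ± 0.23) were also under the bound.

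Red cell enzymes were bright, with a median of 9.54 over 22 genes. Txn1, thioredoxin (12.43 ± 0.05), Prdx2, the peroxiredoxin of red cells (12.36 ± 0.24), and Gpx1, glutathione peroxidase (12.28 ± 0.60), were in the top 1 percent. Gpx1 read 11.75, 11.77, 12.86 and 12.73 and Car2, carbonic anhydrase 2, read 10.70, 10.99, 11.91 and 11.72, and for both arrays 7 and 9 were the higher. Car1, the other red cell carbonic anhydrase, was under the bound at 4.64 ± 0.12. The next lowest enzymes, Gss, glutathione synthetase (6.34 ± 0.45), and Gsr, glutathione reductase (6.77 ± 0.56), were above it. Among genes of nuclear condensation and organelle clearance, Xpo7, a nuclear exporter of maturing red cells, was the highest at 10.64 ± 0.37, followed by the autophagy gene Map1lc3b (9.88 ± 0.08), Bnip3 (9.59 ± 0.25) and Rac1 (9.54 ± 0.46). Alox15, which attacks mitochondrial membranes in reticulocytes (4.19 ± 0.21), Ube2o, which remodels the proteome there (4.57 ± 0.20), and the formin gene Diaph3 (4.67 ± 0.30) were under it.

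Genes of protein synthesis made up the largest listed share of the bright end. Of the 44 cytosolic ribosomal protein genes measured through probe sets of their own, 30 were in the top 1 percent, where they made up 24.2% of 124 genes, and their median was 12.10. That median was 12.31 with arrays 7 and 9 alone and 12.54 when members with shared probe sets only were added, but 7.39 over probe sets without a name suffix. Rps27 (4.60 ± 0.11) was the only member under the bound by a probe set of its own. A probe set that it shares with Rps27rt was bright, at 12.67 ± 0.17. Translation factors had a median of 10.66, with all 35 above the bound. After Tpt1 and Eef1a1 came Eef1b2 (12.40 ± 0.08), the exchange factor of Eef1a1, and Naca (12.19 ± 0.14), part of the complex that shields new chains. Eif2ak1, the haem-regulated kinase that slows globin translation when haem is short, was the lowest member at 6.57 ± 0.87.

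Chaperones had a median of 10.84, led by Hspa8 (12.65 ± 0.16), Hspe1 (12.12 ± 0.20), Cct6a (12.12 ± 0.17) and Hsp90aa1 (12.08 ± 0.23). The respiratory chain and ATP synthase had 14 of 68 genes in the top 1 percent and a median of 10.46, with Cox5b at 12.60 ± 0.24 and Atp5g3 at 12.46 ± 0.07. The proteasome had a median of 9.64, led by Psma3 (11.89 ± 0.14), Psma6 (11.87 ± 0.16), Psmc2 (11.70 ± 0.33) and Psma2 (11.51 ± 0.20), and nuclear splicing factors 9.38, led by Snrpg (12.80 ± 0.15), Snrpe (12.38 ± 0.18), Hnrnpk (12.15 ± 0.44) and Srsf1 (11.95 ± 0.26). All 37 splicing factors and all 32 proteasome genes were above the bound. Glycolysis was lower, with a median of 7.99; Pgk1 (11.73 ± 0.18), Ldha (11.12 ± 0.44) and Tpi1 (10.59 ± 0.23) led it, and the brain form Eno2 was at 3.59 ± 0.16.

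Genes of DNA replication and mitosis had a median of 8.67, and 43 of 45 were above the bound. Stmn1, which destabilises microtubules, was at 11.72 ± 0.29, Mki67, the proliferation antigen, at 11.03 ± 0.35, and the replicative helicase subunit Mcm4 at 10.96 ± 0.21. Hmgb2 read 11.85, 11.99, 11.04 and 10.58 and was higher on arrays 3 and 5. Among inhibitors of division and death genes, Mcl1 (10.38 ± 0.12), Ccng1 (10.07 ± 0.37), the imprinted Cdkn1c (9.51 ± 0.43) and Btg1 (9.22 ± 0.33) were bright, whereas Cdkn1b (3.80 ± 0.34) and Cdkn2a (3.81 ± 0.05) were under the bound. Of the stress genes, Dnajb1 was at 10.84 ± 0.28 and Atf4 at 10.56 ± 0.54, followed by Xbp1 (9.87 ± 0.37) and Jund (8.15 ± 0.42), and the immediate early genes Fosb (3.57 ± 0.10) and Junb (3.50 ± 0.26) were under it.

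The list of imprinted and sex-linked genes had a median of 7.26 (percentile 74.3), with 9 of 24 measured in the top 10 percent and 6 at or under the bound. Plagl1, a zinc finger regulator of the imprinted network, was at 12.51 ± 0.25, Peg3 at 11.51 ± 0.24 and Ndn at 10.18 ± 0.36. Igf2, the fetal growth factor, read 9.53, 9.96, 11.61 and 11.73 and was higher on arrays 7 and 9, as was the imprinted Dlk1 at a lower level (4.96, 5.24, 6.40 and 7.10). Hox genes were mostly near the floor: 26 of 31 were at or under the bound, with a list median of 4.31. Hoxc8 was the exception at 8.68 ± 0.46, with 8.03, 8.78, 8.79 and 9.11, and the next members were Hoxc9 (6.24 ± 0.17), Hoxc6 and Hoxa3 (5.79 ± 0.35).

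Markers of visceral endoderm, the layer that lines the yolk sac next to the blood islands, had many bright members. Of 37 measured, 33 were above the bound, 17 were in the top 10 percent and 3 were in the top 1 percent, with a median of 8.53 (percentile 86.7). Besides Ttr, Afp, alpha-fetoprotein, was at 12.67 ± 0.34 with 12.77, 13.02, 12.69 and 12.21, and the zinc carrier gene Slc39a8 was at 12.20 ± 0.27. Apoa1, an apolipoprotein, was at 11.70 ± 0.69 with 10.99, 11.24, 12.16 and 12.41. The endoderm regulator Hnf4a was at 8.53 ± 0.30 and the endocytic receptor gene Cubn at 9.76 ± 0.35, while Gata4 (4.30 ± 0.10) and Alb (5.10 ± 0.25) were under the bound. The mean deviation of the list from its own average was -0.20, 0.13, -0.18 and 0.25 on arrays 3, 5, 7 and 9, and 4 of the 35 members that reached the bound on an array, Apoa1 and Apoe among them, had arrays 7 and 9 above their widest gap. Their part in the levels of genes that both cell types express was not tested.

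Mesenchyme markers also had several bright members. Of 31 measured, 9 were in the top 5 percent, with a list median of 7.22. Col3a1, a fibrillar collagen, was at 11.72 ± 0.49, with 11.13, 11.53, 12.26 and 11.94, and Acta2, smooth muscle actin (10.86 ± 0.23), Vim, vimentin (10.73 ± 0.20), and Lum, lumican (10.50 ± 0.45), followed. Endothelial markers had a median of 6.19, with 19 of 30 above the bound, beside 55.2% of all genes. Lyve1, a hyaluronan receptor that yolk sac endothelium expresses, was at 9.53 ± 0.56, and Ets1 (8.54 ± 0.25), Egfl7 (7.38 ± 0.38) and Ramp2 (7.16 ± 0.78) came next. The defining endothelial genes Pecam1 (3.97 ± 0.11), Cdh5 (4.86 ± 0.22) and Emcn (3.96 ± 0.18) were under the bound, and Kdr (6.38 ± 0.47) and Tek (7.08 ± 0.32) were above it.

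Other blood lineages were low apart from a few genes. Of the megakaryocyte markers, Pf4, platelet factor 4, was at 10.42 ± 0.57, with 10.15, 9.85, 11.18 and 10.51, and Plek (8.03 ± 0.43), Clec1b (7.93 ± 0.73) and Ppbp (6.34 ± 1.09) were next, while Itgb3 (4.52 ± 0.23) was under the bound. All 4 leading genes were highest on array 7. Macrophage markers had a median of 4.93 with 15 of 24 at or under the bound, led by Csf1r (7.74 ± 0.14), Laptm5 (7.03 ± 0.47), Mrc1 (6.92 ± 0.15) and Adgre1 (6.13 ± 0.24), and the leukocyte antigen Ptprc was at 4.10 ± 0.39. Of the blood progenitor genes, 11 of 22 were above the bound, beside 55.2% of all genes, led by Procr, Lyl1, Gata2 and Myb. Lymphoid and granulocyte genes (24 of 27), heart and muscle genes (19 of 23) and neural genes (21 of 26) were mostly at or under it, as were placental and decidual genes (26 of 38). The highest lymphoid genes were Ighm (6.73 ± 0.21), Zap70 (6.61 ± 0.22), Cd4 (5.53 ± 0.12) and Cd3e (5.04 ± 0.16). The highest muscle genes were Tnni1 (5.91 ± 0.47), Pln (5.74 ± 0.25), Actc1 (5.66 ± 0.52) and Myl3 (5.40 ± 0.14). The highest neural genes were Ncam1 (6.86 ± 0.06), Nes (6.54 ± 0.27), Sox10 (5.93 ± 0.20) and Gap43 (5.59 ± 0.62). The highest placental and decidual genes were Hsd11b2 (8.94 ± 0.58), Cryab (8.25 ± 0.67), Dcn (7.40 ± 0.69) and Prl8a2 (7.33 ± 4.52).

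**Figure D3:**
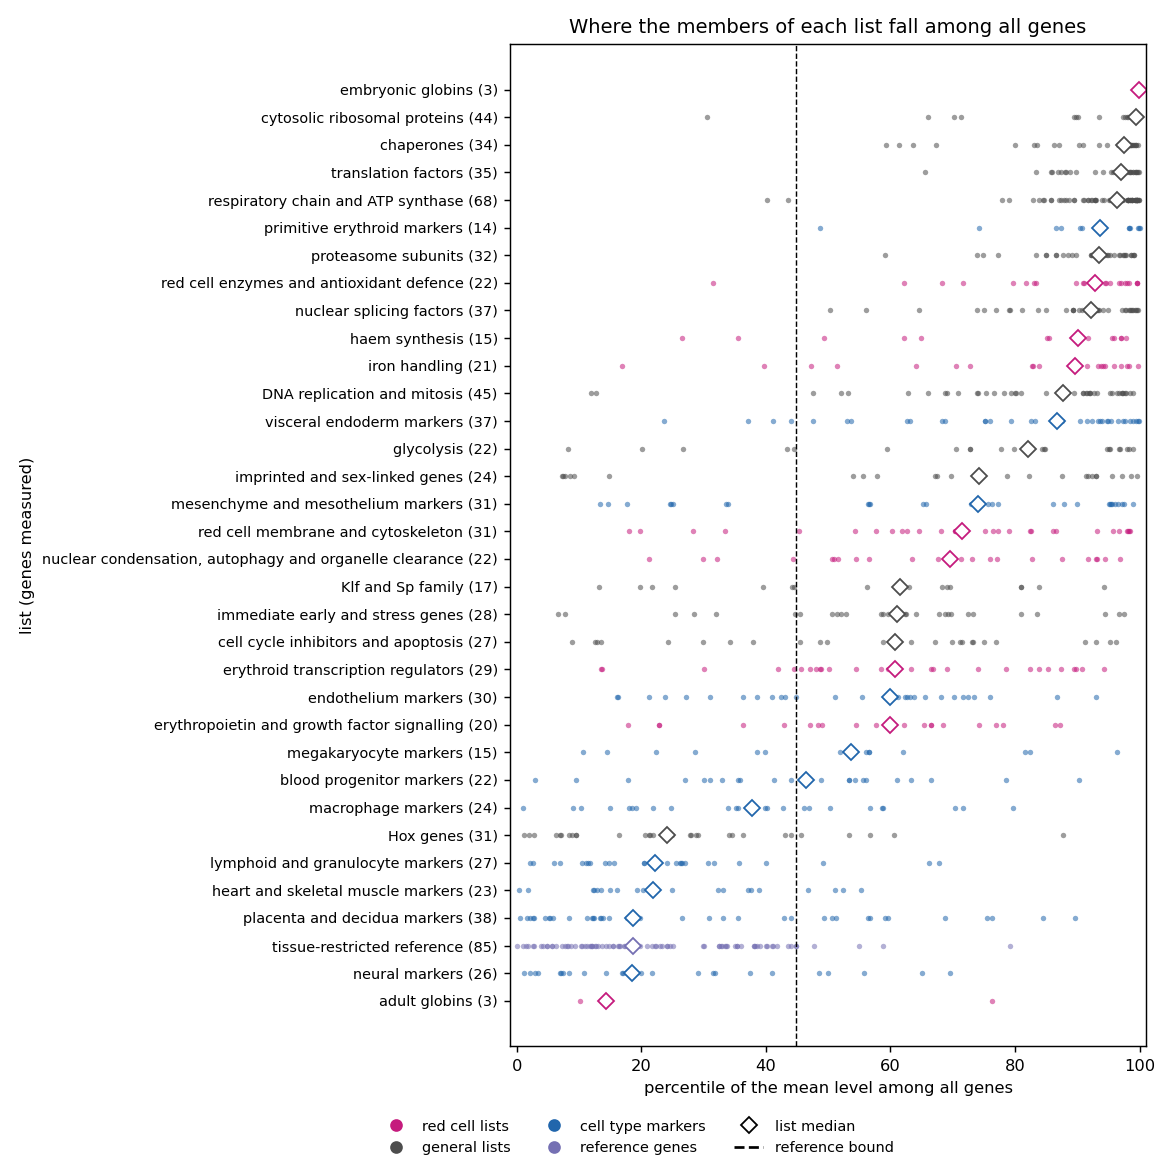
Percentile of each gene's mean among all 12393 genes (horizontal axis) for the members of 34 gene lists (vertical axis, number measured in brackets), with diamonds at list medians and the dashed line at the reference bound. Ribosomal proteins, chaperones, translation factors and the respiratory chain have their medians above percentile 95, and visceral endoderm markers are mixed with the red cell lists. Neural, placental, muscle and lymphoid markers have their medians among the reference genes, although some members lie higher.

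At the other end, 4848 genes (39.1%) were under the bound on all 4 arrays. The lowest means belonged to Crisp3 (2.64 ± 0.07), a secretory protein of glands and the male tract, Akr1c14 (2.73 ± 0.08), a steroid-metabolising enzyme, Slc22a27 (2.75 ± 0.05), an organic anion carrier gene, Zfp353-ps (2.75 ± 0.08), a pseudogene, and Slc15a5 (2.75 ± 0.04). Lce1l (2.76 ± 0.10), a late cornified envelope gene, Spock3 (2.76 ± 0.12), Neurod6, a neuronal factor (2.76 ± 0.08), Mybl1, a germ cell factor (2.76 ± 0.06), and Cyp3a16 (2.77 ± 0.11), a liver cytochrome, made up the rest of the lowest 10. By construction, 5 of the 85 reference genes were above the bound. The highest of them, the stomach peptide gene Tff1, was at 7.70 ± 0.21, followed by Atp4b (6.12 ± 0.19), Prm1 (5.89 ± 0.35) and Lor (5.46 ± 0.33). A gene just above the bound can therefore not be called expressed from its level, and one under it cannot be called silent. With the 90th or the 99th percentile of the reference genes as the bound, 7245 or 4643 genes were above it.

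The spread between replicates was small for most genes. The median SD was 0.23, a factor of 1.17, and its 95th percentile was 0.66. SDs were widest in the middle of the range: the median was 0.15 in the lowest 25 percent of genes by level, 0.31 between percentiles 50 and 75 and again between 75 and 90, and 0.18 in the top 1 percent. Of all genes, 1795 (14.5%) ranged over more than 1 log2 unit, 190 (1.53%) over more than 2, a factor of 4, and 41 over more than 3, and none of the top 1 percent ranged over more than 2. The steadiest bright genes included Hnrnpdl, an RNA-binding protein gene (12.22, 12.19, 12.22 and 12.20), Jtb (9.52, 9.53, 9.50 and 9.53) and Nme2, a nucleoside diphosphate kinase gene (11.87, 11.92, 11.87 and 11.89). Rpl35 (13.01 ± 0.02), Rpl13a (13.37 ± 0.04), Usp1 (11.09 ± 0.04), Adh5 (11.03 ± 0.04), Atp2a2 (10.34 ± 0.04), Rbmxl1 (9.66 ± 0.04) and Pclaf (9.42 ± 0.05) completed the 10 steadiest of the top 10 percent. With arrays 7 and 9 alone the median SD was 0.15 and 11 genes differed by more than 2. Fewer arrays tend to lower both figures, so they do not compare directly with those of 4 arrays.

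**Figure D4:**
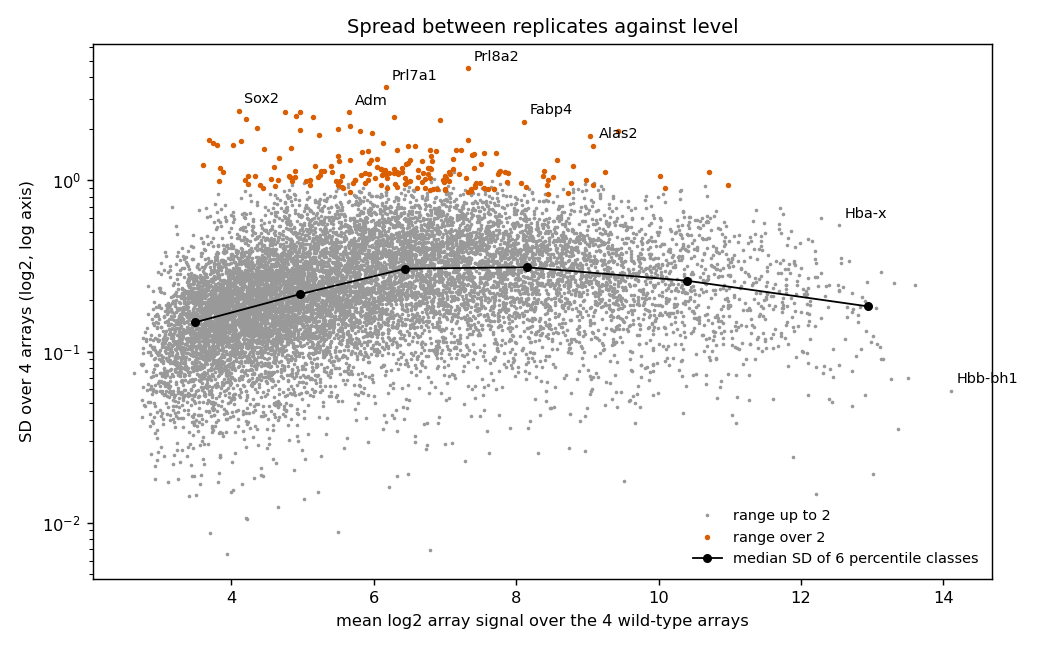
SD over the 4 wild-type arrays (vertical axis, log scale) against mean log2 array signal (horizontal axis), with 1 point per gene. Orange points are the 190 genes that ranged over more than 2 log2 units, and the black line joins the median SDs of 6 percentile classes, which rise from 0.15 to 0.31 and fall to 0.18.

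The widest spread belonged to prolactin-family genes that were high on arrays 3 and 5. Prl8a2, a prolactin-family hormone of decidua, read 10.87, 11.61, 3.39 and 3.45, and Prl7a1, a hormone of trophoblast giant cells, read 6.93, 10.85, 3.42 and 3.51. Both were under the bound on arrays 7 and 9. Prl4a1 read 8.44, 6.10, 4.11 and 4.02 and was highest on array 3. The mean deviation of the placental and decidual list was 0.32, 0.45, -0.39 and -0.37, although 26 of its 38 genes had means at or under the bound. Its members did not move together. Of the 18 that reached the bound on an array, 3 had arrays 3 and 5 above the widest gap, 4 array 3, 6 array 5 and 2 arrays 7 and 9. Its brightest member Hsd11b2, an enzyme that inactivates glucocorticoids, read 8.26, 8.67, 9.45 and 9.38 and was higher on arrays 7 and 9. Dcn, decorin, read 6.64 and 6.99 on arrays 3 and 5 and was at or above 7.98 on arrays 7 and 9. Other genes higher on arrays 3 and 5 were Htra1, a secreted protease (8.63, 9.11, 5.16 and 4.83), Ctla2a, a protease inhibitor gene of placenta and decidua (10.36, 11.72, 7.98 and 7.64), Procr, the protein C receptor (9.94, 11.13, 7.25 and 7.85), and Tfap2c, a trophoblast transcription factor (6.75, 8.27, 4.22 and 4.65). Erv3, an endogenous retroviral gene, read 6.39, 7.89, 3.89 and 3.83.

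Array 3 alone was high for a set of genes that includes Sox2. Sox2, a neural and stem cell factor, read 7.94, 2.75, 3.01 and 2.71, Cdh2, N-cadherin, 8.48, 4.09, 3.17 and 3.27, Fabp7, a fatty acid carrier of radial glia, 8.69, 4.17, 3.48 and 3.54, and Crabp1, a retinoic acid carrier, 8.67, 4.07, 4.15 and 3.71. Outside array 3, all of them were under the bound. Sox11 (7.39, 3.36, 3.42 and 3.27), Nr2f1 (7.65, 3.19, 3.05 and 2.95), Sbk1 (8.48, 3.75, 3.69 and 3.69) and the protocadherin gene Pcdh8 (6.26, 2.89, 2.80 and 2.79) had the same shape. Of these 8 genes, Sox2 is the only one in the neural list, which deviated by 0.48, -0.16, -0.14 and -0.18. Of the 9 members of that list that reached the bound on an array, 5 had array 3 alone above the widest gap, among them Elavl4 (6.45, 3.31, 3.25 and 3.12) and Neurog2 (5.55, 3.26, 3.50 and 3.23). Its brightest member Ncam1 was level on all arrays (6.87, 6.84, 6.94 and 6.80), and Gap43 was highest on array 9 (5.34, 4.95, 5.66 and 6.40). Other genes were highest on array 5: Adm, adrenomedullin, read 4.40, 9.41, 4.26 and 4.57, the calcium-binding protein gene S100a6 6.20, 9.64, 4.78 and 4.55 and Fabp4, a fatty acid carrier of fat and capillary cells, 7.67, 10.90, 8.37 and 5.54. Mt4 (4.24, 7.91, 3.72 and 3.96), Gatm, the first enzyme of creatine synthesis (4.55, 7.99, 4.20 and 4.22), Lgals3, galectin 3 (6.30, 8.33, 3.94 and 4.66), and Serpinb9g (4.34, 6.46, 2.74 and 3.01) were also highest on array 5.

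Arrays 7 and 9 were together on the high side of the largest number of variable genes. When the 4 values of a gene were ordered and cut at their widest gap, 69 of the 200 most variable genes had arrays 7 and 9 above the gap. The numbers were 34 for array 3 alone, 34 for array 5 alone, 22 for arrays 3 and 5 together, 13 for array 9 alone and 4 for array 7 alone. Prmt1, an arginine methyltransferase gene, had the widest spread of these 69, at 6.18, 5.55, 9.08 and 8.52. Alas2, Rhag, Rhd, Kel, Dmtn, Zfpm1 and Tfr2 were among the 69, as were Bsg, basigin (5.35, 5.45, 7.26 and 7.98), Blvrb, biliverdin reductase B (8.16, 8.15, 9.70 and 9.88), Ccnd3, cyclin D3 (6.70, 6.91, 8.56 and 8.96), and Eef2, the elongation factor of translocation (7.43, 7.49, 9.35 and 10.02). Apoe, an apolipoprotein, shared the order at 6.55, 6.46, 8.49 and 9.36.

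The share of genes that held this order differed between lists, although no test was made. Among the 7545 genes with at least 1 array above the bound, 1086 (14.4%) had arrays 7 and 9 above the widest gap. The share was 8 of 13 for haem synthesis, 14 of 27 for the red cell membrane, 8 of 14 for the primitive erythroid markers, 7 of 16 for erythropoietin signalling, 9 of 21 for red cell enzymes and 8 of 25 for the erythroid regulators. It was 4 of 19 for iron handling, 3 of 19 for nuclear condensation and organelle clearance and 0 of 3 for the embryonic globins. Outside the red cell lists it was 22 of 68 for the respiratory chain, 3 of 9 for megakaryocyte markers, 7 of 24 for mesenchyme markers, 8 of 32 for the proteasome, 7 of 43 for ribosomal proteins and 4 of 35 for visceral endoderm markers. Mean deviations were -0.52, -0.36, 0.47 and 0.41 for haem synthesis and -0.43, -0.27, 0.42 and 0.29 for the membrane list, beside 0.32, 0.45, -0.39 and -0.37 for placental and 0.03, 0.03, 0.02 and -0.07 for reference genes. The embryonic globins did not share the order as a list, with mean deviations of -0.19, 0.07, 0.04 and 0.08, and neither did Slc4a1. By their brightest probe sets, members of the embryonic globin list ran in opposite ways. Hba-x was higher on arrays 7 and 9 (11.82, 12.51, 12.66 and 13.16), although its widest gap lay between arrays 3 and 5. Hbb-y was lower on arrays 7 and 9 (13.78, 13.81, 13.55 and 13.28), and Hbb-bh1 varied little. The dimmest probe set of Hbb-y did not run this way (12.87, 13.14, 13.23 and 12.93). Outside the list, the brightest probe set shared by Hba-a1 and Hba-a2 held the order (12.88, 12.88, 13.38 and 13.48). The one shared by the adult beta globins did not. The part of placental, decidual or neural RNA in the lower red cell values of arrays 3 and 5 was not tested.

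**Figure D5:**
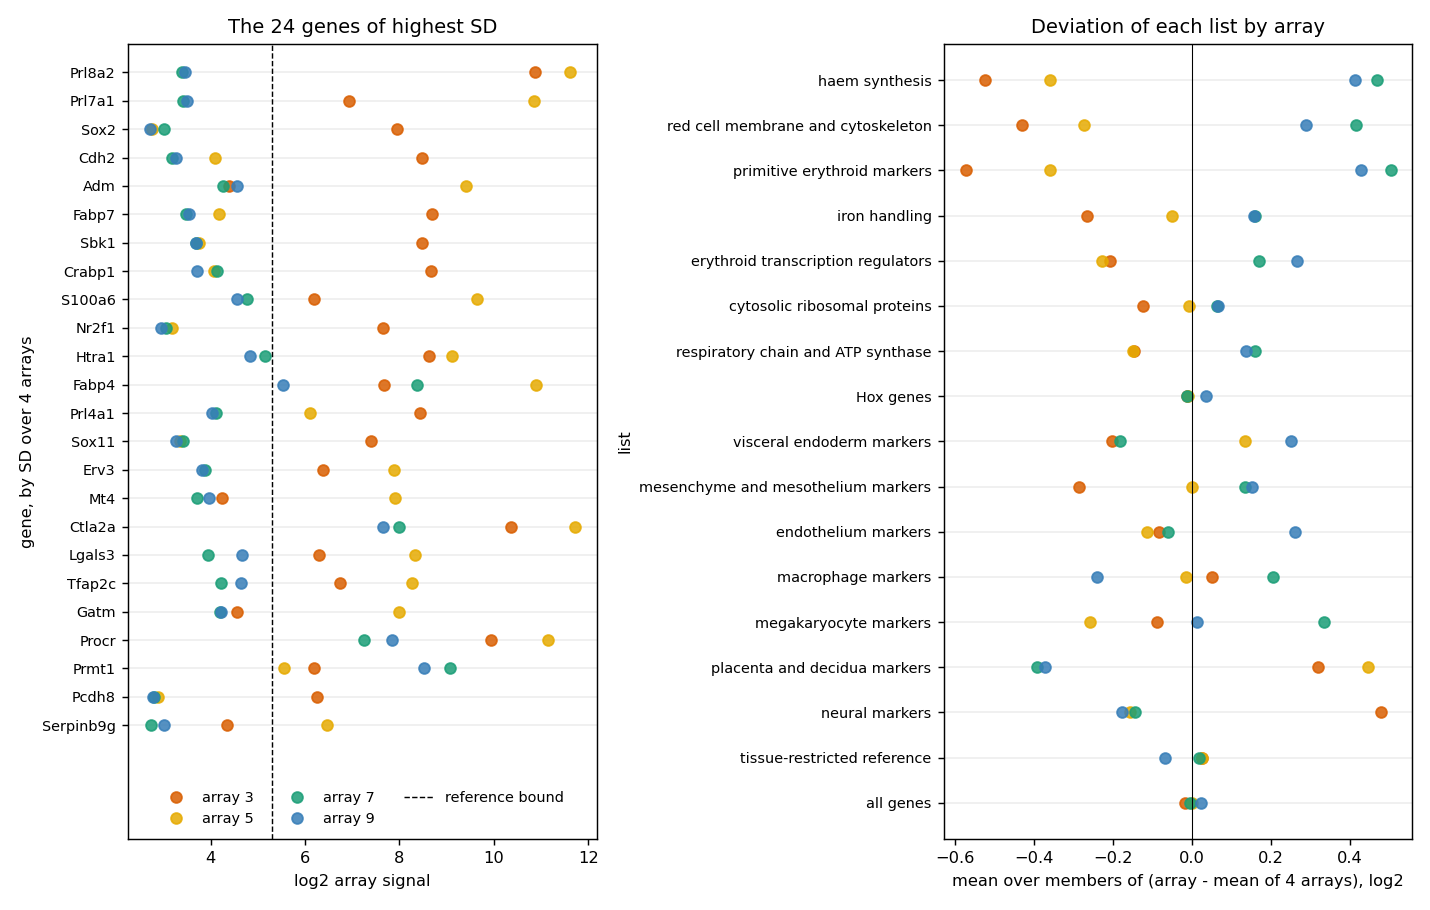
Left, log2 array signal (horizontal axis) of the 24 genes with the highest SD among those with an array above the bound (vertical axis), with 1 point per wild-type array and the dashed line at the reference bound. Right, mean deviation of each list's members from their 4-array mean by array, in log2 units. The mean deviation of the placental list is above 0 on arrays 3 and 5, that of the neural list on array 3 alone, and those of the haem, membrane and erythroid marker lists on arrays 7 and 9.

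Sex-linked genes also varied between the pools. Xist, the RNA of the inactive X chromosome, read 10.04, 9.71, 7.60 and 9.65 and was lowest on array 7. Eif2s3y, a Y-linked initiation factor gene, read 6.42, 7.50, 7.85 and 4.95 and was highest on array 7 and lowest on array 9. Kdm5d, another Y-linked gene, was under the bound on every array but ran in the same order at its ends (3.62, 3.40, 4.59 and 2.96). Sry (5.99, 5.90, 6.64 and 5.75) had the same arrays at its ends, and Zfy2 (3.61 ± 0.43) and Uty (3.57 ± 0.13), both under the bound, did not. Unlike Eif2s3y, Sry stayed above the bound on array 9, and it was read from the brighter of 2 probe sets. Whether its signal is background was not tested.

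Probe sets of 1 gene often differed in level. Among the 4956 genes with several probe sets of 1 symbol, the means of a gene's probe sets spanned a median of 1.72 log2 units (quartiles 0.78 and 3.15). The median SD between arrays of the same genes was 0.25. Of the 3572 such genes whose brightest probe set was above the bound, 2302 (64.4%) had another at or under it. The widest spans were those of Tpt1, with 13.12 for the brightest and 3.46 for the dimmest of 2 probe sets, Rps18 (13.31 and 3.67), Rps20 (13.05 and 3.73) and Rpsa (13.13 and 3.88). Ran, Cox5b, Hmgn1 and Rpl35 followed with spans from 9.23 down to 8.82. Differences between arrays were compared in the same way. Of the 200 most variable genes, 38 had a second probe set above the bound on at least 1 array. Some of these second probe sets had means under the bound, such as that of Ptbp2 (4.36). For 20 of the 38 genes, the widest gap cut both probe sets into the same arrays. These include 9 of the 13 with arrays 7 and 9 on the high side and 1 of the 4 with arrays 3 and 5. Of the 1000 most variable genes, 258 had such a second probe set, and 83 of these (32.2%) were cut into the same arrays, including 33 of 81 with arrays 7 and 9 on the high side.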

How the data were processed

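The deposited table of processed values gives each probe set a log2 signal on every one of the 8 arrays. Per the submitters' processing notes, GCOS, affy and robust multi-array averaging (RMA) were used, with neither version nor order. The sources used here do not say whether all 8 arrays went into 1 RMA run. Deposited values were taken without further normalisation. There were 22626 probe sets, of which 0 were controls. GEO's platform annotation gave 20380 of them 1 gene symbol, 691 several and 1555 none, and 20351 of the 20380 matched a RefSeq gene table of GRCm38.p6, which changed 0 symbols. Genes measured only through shared or unnamed probe sets are outside the 12393 genes and were not analysed here, except where a shared probe set is named.

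Means, SDs, percentiles, list counts and widest gaps were computed in Python 3.11.15 with pandas 2.3.3 and numpy 2.4.6, and the code was tested on simulated data. Only 1 group is described, so no test was made. Precision is limited by the number of arrays. Gene lists and the genes named were chosen with earlier results of these data known. The text names the 30 genes of highest mean, the 4 highest members of each list and the lowest 3 of the red cell lists, all globins, erythroid regulators and Klf and Sp genes, the 24 genes of highest SD with an array above the reference bound, the 10 steadiest of the top 10 percent, the lowest 10, Xist and Y-linked genes, and the 8 of widest span over probe sets. Shared and unnamed probe sets among the 30 brightest are given as counts and by the brightest example. Other names were picked from the lists after their values were seen. Promoter sequences are RefSeq's, with entries for 9882 genes. The alternatives tried were other probe set choices, quantile normalisation, centring on array medians, other percentiles for the bound, leaving out each array, arrays 7 and 9 alone and adding shared probe sets. A deposited table of S-scores, which compares the groups, was not used here.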

Additional observations from a re-analysis of the deposited data

Results flagged for a closer look

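Among groups of 4 arrays, 1 array stood apart from the other 3 (a gap to its nearest neighbour, relative to the whole range, beyond Dixon's 95% critical value for 4 values) for 23 of the 242 named genes (9.50%) and for 654 of all 12393 genes (5.28%). Chance gives about 1 in 20, and 24 of the named genes were picked for their spread.

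High on array 3 were Fabp7 at 8.69, Crabp1 at 8.67, Sbk1 at 8.48, Sox2 at 7.94, Nr2f1 at 7.65, Sox11 at 7.39 and Pcdh8 at 6.26, against 2.71 to 4.17 for the other arrays of Sox2, Fabp7 and Crabp1. High on array 5 were Peg3 at 11.87, Adm at 9.41, Gatm at 7.99 and Mt4 at 7.91. On array 7, the pseudogene Zfp353-ps was high at 2.88, and Gab1 at 8.22, Xist at 7.60 and Xk at 4.00 were low. On array 9, Pcbp1 at 11.77 and Stat5a at 5.73 were high. Low on array 9 were Ran at 12.30, Atf4 at 9.76, Csf1r at 7.53, Foxo3 at 7.50, Tff1 at 7.38 and Myl3 at 5.18.

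Of the 34 lists, 5 had a mean deviation that stood apart on 1 array. Neural markers were high on array 3 (0.48) and endothelial markers on array 9 (0.26), and Hox genes were also highest on array 9, by a small amount (0.0349). Embryonic globins as a list were lowest on array 3 (-0.19), although by the brightest probe sets Hba-x alone was lowest there (11.82). Hbb-y and Hbb-bh1 were by theirs lowest on array 9 (13.28 and 14.04), whereas the dimmest probe set of Hbb-y was lowest on array 3 (12.87). The reference genes were lowest on array 9 (-0.0690). No explanation was tested for any of these.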

How the results depend on the processing

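The choice of probe set changed the most. With a gene's probe sets averaged, 13 of the 30 genes with the highest means stayed among them, and list medians fell to 8.38 for haem synthesis, 6.22 for the red cell membrane, 11.20 for ribosomal proteins and 5.77 for endothelium. With probe sets without a name suffix only, 181 of the 242 named genes were still measured and 3 of the 30 stayed. Medians were then 8.33 for haem synthesis, 7.39 for ribosomal proteins and 8.03 for visceral endoderm. By the same settings 24 of 34 and 16 of 33 list medians moved by more than the replicate SD. Quantile normalisation, centring on array medians and choosing the probe set over all 8 arrays moved none of the 34 list medians by that much. The number of genes above the bound ran from 4643 to 7245 over its alternatives. Genes that ranged over more than 2 numbered 122 to 141 when 1 array was left out and 11 with arrays 7 and 9 alone, where fewer arrays narrow any range. With these arrays alone, a setting added after the data were seen, the median SD was 0.147, which fewer arrays also tend to lower. The list medians were then 7.72 for the red cell membrane and 12.31 for ribosomal proteins. Adding shared probe sets, also chosen after the data were seen, gave 12.54 for ribosomal proteins. The causes of these shifts were not tested. Signals near the bound cannot be told from background in this table, and the replicates are pools of 2 to 4 yolk sacs, so differences between single embryos are not seen.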

Other observations

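Some bright genes were in none of the lists, and all of those named here were picked after their values were seen. Hemgn, a nuclear protein of blood cells that Gata1 is known to activate, was at 12.07 ± 0.21. Bex1, a small adaptor protein gene on the X chromosome, was at 12.64 ± 0.18, Fabp5, a fatty acid carrier gene, at 12.53 ± 0.23, and Ran, the nuclear transport GTPase gene, at 12.45 ± 0.10. Rhox5, a reproductive homeobox gene of the X chromosome, and Selenop, a selenium carrier gene, were in the top 5 percent at 11.23 ± 0.14 and 11.39 ± 0.12. In the top 5 percent as a whole, 406 of 620 genes (65.5%) belonged to none of the lists.

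By chromosome, the share of genes above the reference bound lay between 47.4% on chromosome 6 and 59.3% on chromosome 4 among the autosomes, beside 55.2% on the X chromosome. On the Y chromosome, 2 of 8 genes were above it.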
